A study of Mus musculus with 8 samples.

Results

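The SOCS family of feedback inhibitors of cytokine signalling was followed here in cultured mouse dendritic cells through 5 genes, Socs1, Socs2, Socs3, Socs5 and Cish. Every probe set that the platform annotation gives to 1 of these symbols was taken, which gave 6 probe sets of the 12422 tested, or 5 of 8251 named genes. Socs3 had 2 probe sets, the brighter 92232_at and the dimmer 162206_f_at, and the others had 1 each: 92832_at for Socs1, 99475_at for Socs2, 92287_at for Socs5 and 100022_at for Cish. The cells were CD8+ dendritic cells purified from the spleens of female DBA/2J mice, 60 days old, all of them given Flt3-L (10 µg, for 9 days), which raises the number of dendritic cells. Cultures held either medium alone or mouse interferon gamma (IFN-γ) at 200 U/ml and ran for 4 or 16 hours, after which total RNA was hybridised to Affymetrix MG-U74Av2 arrays. Each of the 4 groups (medium at 4 hours, medium at 16 hours, IFN-γ at 4 hours, IFN-γ at 16 hours) held 2 arrays, 8 in all, and that number limits the precision. The labels do not say whether the arrays of 1 group stand for different mice or cultures, and the p-values thus speak only of how far these arrays lie apart, a spread that may be technical.

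As background, cytokine receptors such as the one for IFN-γ lack an enzyme of their own and signal through bound JAK kinases, which phosphorylate STAT transcription factors. The STATs switch on, among other genes, those of the SOCS proteins, which bind the receptor or the kinase through an SH2 domain and recruit a ubiquitin ligase through the SOCS box, closing a negative feedback loop. Socs1 is the main brake on IFN-γ signalling and inhibits JAK kinases directly, Socs3 acts chiefly on receptors that signal through gp130, and Socs2 and Cish are best known as targets of STAT5 that restrain growth hormone and related receptors.

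The start regions of the family are shown because STAT and IRF factors act on genes through short DNA elements, and the letters of these elements can be read there. RefSeq start regions (build GRCm38.p6) were matched for 3 of the 5 members, Socs1, Socs3 and Cish. Each run holds 250 bases, 5′ to 3′ in the direction of the gene. Those of Socs1 (chr16:10785537-10785786, minus strand) and Socs3 (chr11:117969367-117969616, minus strand) end just before the annotated start, and that of Cish (chr9:107296434-107296683, plus strand) ends 25 bases after it. Capitals mark matches to the GAS motif TTCNNNGAA, the element that STAT dimers bind, and to the core of the interferon-stimulated response element that IRF factors bind, which is GAAA and GAAA parted by any 2 bases. Both strands were searched, and the GAS motif reads alike on both.
Socs1: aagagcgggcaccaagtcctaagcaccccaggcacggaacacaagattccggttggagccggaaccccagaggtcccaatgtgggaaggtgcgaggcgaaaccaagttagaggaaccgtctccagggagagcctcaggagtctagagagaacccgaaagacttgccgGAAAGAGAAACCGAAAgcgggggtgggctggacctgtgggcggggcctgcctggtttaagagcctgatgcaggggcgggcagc
Socs3: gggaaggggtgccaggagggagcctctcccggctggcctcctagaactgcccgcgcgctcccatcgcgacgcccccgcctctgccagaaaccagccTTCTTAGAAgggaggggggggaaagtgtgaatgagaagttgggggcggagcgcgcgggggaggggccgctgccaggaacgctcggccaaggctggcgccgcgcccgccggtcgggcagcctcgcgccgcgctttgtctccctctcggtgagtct
Cish: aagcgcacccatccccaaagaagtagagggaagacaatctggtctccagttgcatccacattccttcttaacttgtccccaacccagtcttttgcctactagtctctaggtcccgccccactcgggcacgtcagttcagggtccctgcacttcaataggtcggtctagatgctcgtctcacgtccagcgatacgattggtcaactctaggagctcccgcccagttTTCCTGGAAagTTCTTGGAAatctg

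In windows of 300 bases (250 before the start and 50 after it), Socs1 held 2 matches to the response element core that overlap each other, GAAAGAGAAA from 83 to 74 bases and GAAACCGAAA from 77 to 68 bases before the start, and no GAS match. Cish held 2 GAS matches, TTCCTGGAA and TTCTTGGAA, at bases 1 to 9 and 12 to 20 after the start, and no match to the core. Socs3 held 1 GAS match, TTCTTAGAA, from 154 to 146 bases before the start. Of 32544 distinct windows of the same length, 8.33% held the GAS motif and 3.45% the core, and 0.461% and 0.221% held 2 or more. A match is a description of the letters and not a site of binding.

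The labelled cell type was checked against its markers. Of 10 measured markers of CD8+ dendritic cells, 8 lay above the median of 15 antisense control probe sets (called the antisense level below, as a yardstick of unspecific signal) on all arrays, among them Cd8a, Irf8, Batf3, Flt3 and Ly75. The integrin gene Itgae lay below it on all 8 arrays and the chemokine receptor gene Xcr1 on 7. All 8 measured B cell markers, all 8 T cell markers and all 8 granulocyte markers also lay above it in every group. Median intensity ran from 51.3 to 53.7 over the arrays, the antisense level itself from 44.9 to 61.2, and replicate arrays correlated with r between 0.989 and 0.997 across probe sets. All 6 SOCS family probe sets lay above the antisense level on all 8 arrays. That level lay near the median intensity, so lying above it is a weak sign of expression, for these probe sets and for the markers. The share of all probe sets above it was not counted. Socs1 was brighter than 87.7% to 97.9% of all probe sets, Socs5 than 61.8% to 69.9% and the dimmer Socs3 probe set than 56.6% to 71.8%.

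After IFN-γ, the Socs1 transcript was higher at both times, and no other member passed the test at either time. Socs1 differed by 1.39 on the log2 scale at 4 hours and by 1.51 at 16 hours, which is 2.63 and 2.84 times the level in medium. In such bulk RNA, a change in the share of cells of a type and a change in RNA per cell cannot be told apart. The intervals of the other 5 probe sets lay between -0.28 and 0.77 at 4 hours and between -0.52 and 0.63 at 16 hours. Tests used limma with 1 mean per group and the spread pooled over the 8 arrays, and a call here is a Benjamini-Hochberg adjusted p under 0.05 over the 12422 probe sets. Of the 6 probe sets, 1 was called higher at 4 hours, where 0.258% of all probe sets were called higher, and 1 at 16 hours, where 0.161% were. With the replicate number as a block those shares were 1.09% and 0.411%, and the members' counts were again 1 and 1. Lower calls made up 0% and 0.0966% (0.177% and 0.435% with the block), and no member was among them.

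Socs1, which encodes the inhibitor that acts most directly on the JAK kinases of the IFN-γ receptor, had linear intensities of 346 and 286 after 4 hours without IFN-γ. After 4 hours with it they were 989 and 690. At 16 hours the values were 287 and 249 without IFN-γ and 713 and 811 with it. All 4 arrays with IFN-γ were thus above all 4 without it, and the highest medium array was at 346 against 690 for the lowest IFN-γ array. Within a time, both IFN-γ arrays lay above both medium arrays for 15.4% of all probe sets at 4 hours and 9.1% at 16 hours. The share with all 4 above all 4 was not counted. On the log2 scale the group means at 4 hours were 8.30 ± 0.20 in medium and 9.69 ± 0.37 after IFN-γ, and 8.06 ± 0.14 and 9.57 ± 0.13 at 16 hours (SD, n = 2 per group).

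The difference at 4 hours was 1.39 (SE 0.18, interval 0.99 to 1.80, adjusted p = 0.0141, limma with Benjamini-Hochberg adjustment), the 17th largest in size of all probe sets. At 16 hours it was 1.51 (SE 0.18, interval 1.10 to 1.92, limma adjusted p = 0.0137), the 9th largest. Here and below, intervals cover 95%. The effects at the 2 times differed by 0.11 (16 minus 4 hours, SE 0.26, interval -0.46 to 0.69), with an adjusted p of 1 by limma; no probe set was called in this comparison (0%, with 353 at an unadjusted p under 0.05), and with the block 0.242% were called lower, no member among them. The same difference was -0.18 and -0.14 for the Socs3 probe sets, -0.18 for Cish and -0.08 for Socs5, each with an adjusted p of 1 by limma. Socs1 itself differed by -0.23 between 4 and 16 hours in medium (limma adjusted p = 0.579) and by -0.12 in IFN-γ (limma adjusted p = 0.787). The 4-hour call was lost when array 1 (limma adjusted p = 0.0989) or array 2 (0.241) of medium, or array 1 of IFN-γ (0.141), was left out, with differences of 1.53, 1.26 and 1.14. The 16-hour call was lost without array 2 of medium (limma adjusted p = 0.118) or array 2 of IFN-γ (0.0502), with a difference of 1.41 in either case.

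**Figure D1:**
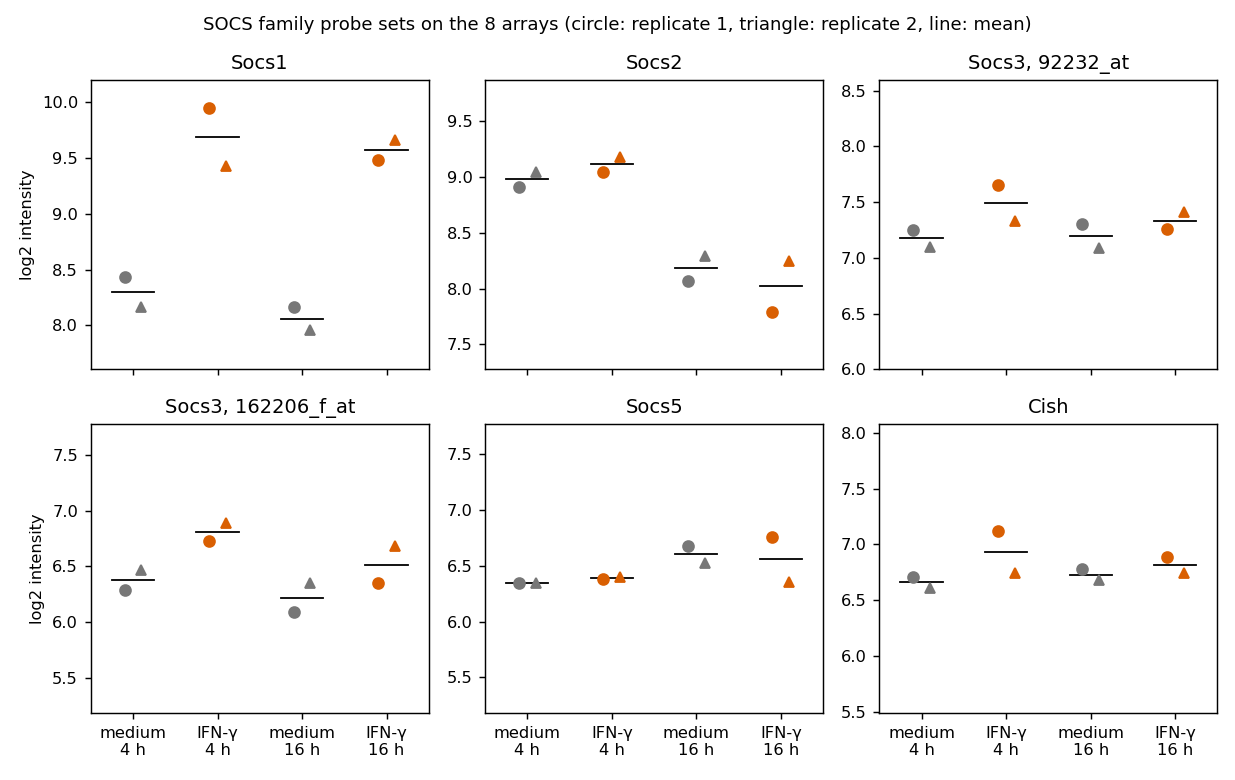
Log2 intensity (vertical axes, each spanning the same log2 range) of the 6 SOCS family probe sets on the 8 arrays, by group; grey is medium, orange is IFN-γ, circles are replicate 1, triangles replicate 2 and lines the group means. Socs1 is higher on all 4 IFN-γ arrays, from 9.43 to 9.95 against 7.96 to 8.43, and Socs2 is lower on all 4 arrays at 16 hours, from 7.79 to 8.29 against 8.91 to 9.18.

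Socs1 was also set against each other member on the same array, where a shift common to an array cancels. The log2 intensity of Socs1 minus that of Socs2 averaged 1.06 on the 4 arrays with IFN-γ and -0.40 on the 4 in medium, a change of 1.46. Against Socs5 the change was 1.46, against Cish 1.27, and against the 2 Socs3 probe sets 1.23 (brighter) and 1.09 (dimmer). In all 5 pairs every IFN-γ array lay above every medium array. Within each time the changes ran from 0.96 (dimmer Socs3) to 1.36 (Socs5) at 4 hours and from 1.21 (dimmer Socs3) to 1.67 (Socs2) at 16 hours. All 5 differences use the same Socs1 values and were formed after those were seen to separate, so they are a description, with no test.

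Socs3, the inhibitor of gp130 receptors, differed upward with IFN-γ on both probe sets without passing the test. The brighter probe set read 152 and 137 in medium at 4 hours, 201 and 161 with IFN-γ at 4 hours, 158 and 137 in medium at 16 hours, and 153 and 170 with IFN-γ at 16 hours. Its IFN-γ arrays lay above its medium arrays at 4 hours, and the groups overlapped at 16 hours. The difference was 0.32 at 4 hours (interval -0.01 to 0.64, adjusted p of 1 by limma) and 0.14 at 16 hours (interval -0.19 to 0.46). The dimmer probe set read 78.4 and 88.7 in medium at 4 hours, 106 and 119 with IFN-γ at 4 hours, 68 and 81.5 in medium at 16 hours, and 81.5 and 102 with IFN-γ at 16 hours. It too was separate at 4 hours, and the groups touched at 16 hours. The difference was 0.43 at 4 hours (SE 0.15, interval 0.09 to 0.77, limma adjusted p = 0.747) and 0.29 at 16 hours (interval -0.05 to 0.63). With time, the brighter probe set differed by 0.03 in medium (limma adjusted p = 0.939) and -0.15 in IFN-γ (0.674), and the dimmer one by -0.16 (0.639) and -0.30 (0.436). Groups of 2 arrays that do not overlap were common, with IFN-γ above medium for 15.4% of all probe sets at 4 hours and 9.1% at 16 hours.

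Within 3 of the 4 groups the Socs3 probe sets varied in opposite directions. On the brighter one, array 1 exceeded array 2 by 0.15, 0.21 and 0.32 in medium at 4 hours, medium at 16 hours and IFN-γ at 4 hours, and differed from it by -0.15 in IFN-γ at 16 hours. On the dimmer one, array 1 minus array 2 was negative in all 4 groups, from -0.33 to -0.16, so that in IFN-γ at 16 hours both probe sets were higher on array 2. Across the 8 arrays they correlated with r = 0.492, less than the brighter one did with Cish (0.856) or with Socs1 (0.807). These correlations are descriptions over 8 arrays that the probe sets share.

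Cish, a STAT5 target that binds phosphorylated cytokine receptors, read 105 and 97.8 in medium at 4 hours and 140 and 107 with IFN-γ. At 16 hours its values were 110 and 102 without IFN-γ and 119 and 107 with it. The groups were separate at 4 hours and overlapped at 16 hours. Array 1 of IFN-γ at 4 hours held the highest value of the 8, as it did for Socs1 and for the brighter Socs3 probe set. The difference was 0.27 at 4 hours (interval -0.05 to 0.59, adjusted p of 1 by limma) and 0.09 at 16 hours (interval -0.23 to 0.41). With time Cish differed by 0.07 in medium (limma adjusted p = 0.844) and -0.12 in IFN-γ (0.742). Without that array of IFN-γ the 4-hour difference was 0.08 for Cish and 0.16 for the brighter Socs3 probe set, but 0.51 for the dimmer one.

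Socs5, a member linked to restraint of receptors for epidermal growth factor and interleukin 4, read 81.4 and 81.8 in medium at 4 hours and 83.2 and 84.2 with IFN-γ. At 16 hours its values were 103 and 92.7 without IFN-γ and 108 and 82.2 with it. The arrays at 4 hours lay close together, with both IFN-γ arrays above both medium arrays, as for 15.4% of all probe sets. At 16 hours the 2 arrays of IFN-γ spanned both arrays of medium. IFN-γ differences were 0.04 at 4 hours (interval -0.28 to 0.35) and -0.05 at 16 hours (interval -0.37 to 0.27), each with an adjusted p of 1 by limma. Between 4 and 16 hours Socs5 differed by 0.26 in medium (interval -0.06 to 0.57, limma adjusted p = 0.415) and by 0.17 in IFN-γ. Its 16-hour arrays lay above its 4-hour arrays in medium, as for 30.8% of all probe sets.

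**Figure D2:**
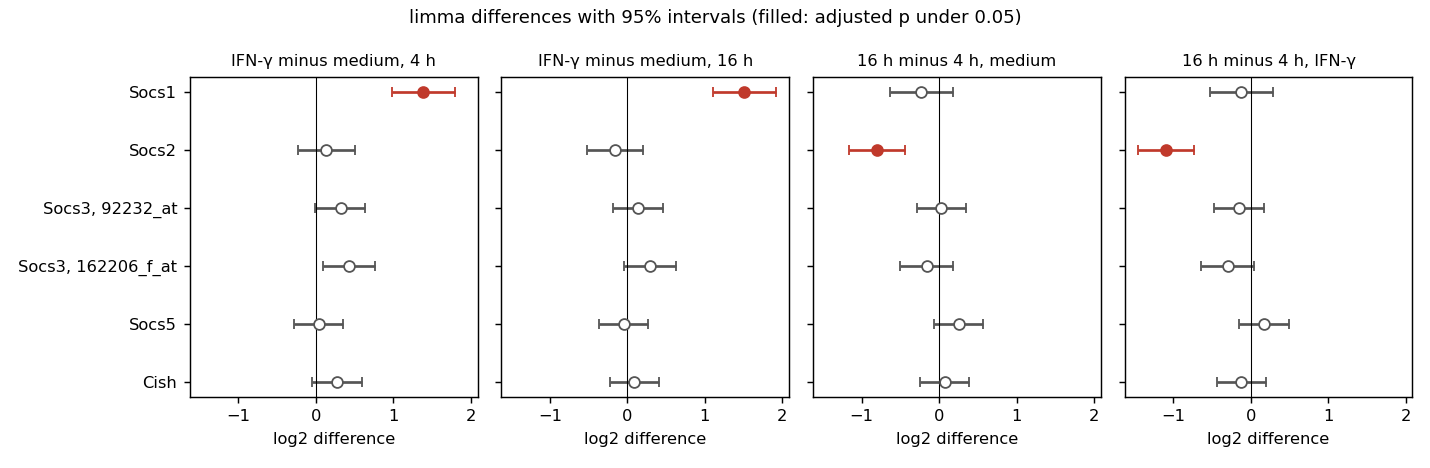
Log2 differences (horizontal axis) of each SOCS family probe set in 4 comparisons, with 95% intervals from limma; filled red points have an adjusted p under 0.05. Socs1 passes in both IFN-γ comparisons (1.39 and 1.51) and Socs2 in both time comparisons (-0.80 and -1.09), and the other 4 probe sets pass in none.

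Socs2, the member known for restraining growth hormone signalling, was not called with IFN-γ at either time but fell with time in culture. Its intensities in medium were 480 and 531 at 4 hours and 269 and 313 at 16 hours. Its values after IFN-γ were 529 and 581 at 4 hours and 222 and 304 at 16 hours. Every 16-hour array thus lay below every 4-hour array, with or without IFN-γ. Within medium alone 20.8% of all probe sets were separate downward between the times, and within IFN-γ alone 17.7%. The share separate over both together was not counted. In medium the group mean went from 8.98 ± 0.10 to 8.18 ± 0.15 (SD, n = 2 per group), a difference of -0.80 (SE 0.16, interval -1.16 to -0.44, limma adjusted p = 0.0278), to 0.574 of the 4-hour level. In IFN-γ it went from 9.11 ± 0.10 to 8.02 ± 0.32, a difference of -1.09 (SE 0.16, interval -1.46 to -0.73, limma adjusted p = 0.0115), to 0.468 of that level.

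Of the 6 probe sets, Socs2 alone was called in either time comparison by limma. At the same threshold 2.57% of all probe sets were called lower in medium and 1.3% in IFN-γ, and 1.71% and 0.821% higher, with a median difference over all probe sets of 0.05 in both. With the replicate block 8.09% and 6.94% were lower and 4.52% and 3.2% higher, and Socs2 was again the 1 member called. The IFN-γ difference of Socs2 was 0.13 at 4 hours (interval -0.23 to 0.50) and -0.16 at 16 hours (interval -0.52 to 0.20), each with an adjusted p of 1 by limma. The fall with IFN-γ and the fall in medium differed by -0.29 (interval -0.80 to 0.22), again with an adjusted p of 1. The call in medium held when an IFN-γ array of 16 hours was left out and was lost without any 1 of the other 6 arrays, at adjusted p between 0.0576 and 0.221 by limma and differences from -0.91 to -0.69. The call in IFN-γ was lost without array 1 (limma adjusted p = 0.0915, difference -1.16) or array 2 (0.138, difference -1.03) of IFN-γ at 4 hours.

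Markers of other cells differed in the same comparisons. The summed intensity of 13 measured macrophage or monocyte markers (of 14 listed) was 1910 to 1970 in medium at 4 hours and 4810 to 5690 at 16 hours, and with IFN-γ 1460 to 1500 and 3560 to 4430. It was thus higher at 16 hours, when Socs2 was lower, and was lower with IFN-γ at each time, when Socs1 was higher. Single markers went both ways with IFN-γ: Lyz2 differed by -0.83 at 4 hours and -0.78 at 16 hours, and C1qb by 0.17 and 0.30. With time in medium, 10 of the 13 markers were called higher and 1 lower by limma, with a median difference of 1.21. With time in IFN-γ, 9 were called higher and 1 lower, with a median of 1.24. Of all probe sets 1.71% were called higher and 2.57% lower in medium, and 0.821% and 1.3% in IFN-γ. Of the 13 markers 0 were called with IFN-γ at either time by limma, with median differences of -0.10 and -0.20. With the replicate block 2 and 3 were called lower, against 0.177% and 0.435% of all probe sets. Of these markers, Marco and Mrc1 lay below the antisense level on all 8 arrays, and none was at 0. The sum of the 10 CD8+ dendritic cell markers was 4340 to 4540 in medium at 4 hours and 3450 to 3660 at 16 hours, and 4780 to 5020 and 3640 to 4270 with IFN-γ. The sum of 8 B cell markers was 7180 to 7710 and 8410 to 8480 in medium at 4 and 16 hours, and 6660 to 6930 and 8680 to 9100 with IFN-γ. With time 1 of these 8 was called higher in medium and 3 in IFN-γ by limma, and none lower. The sum of 8 T cell markers lay between 1710 and 1930 in all groups. That of 8 granulocyte markers was 5140 to 5210 and 4360 to 4580 in medium at 4 and 16 hours, and 4530 to 4760 and 4080 to 4910 with IFN-γ. That of 5 erythroid markers was likewise lower at 16 hours, when Socs2 was, at 468 to 472 and 258 to 271 in medium and 423 to 445 and 260 to 312 with IFN-γ, where Hba-a1 alone lay above the antisense level on all arrays. The 5 plasmacytoid dendritic cell markers summed to 1160 to 1190 and 1320 to 1360 in medium, and to 1010 to 1150 and 1310 to 1380 with IFN-γ. The 5 NK cell markers summed to 408 to 541 over all arrays, the 3 of CD8- dendritic cells to 548 to 862, and the 6 of antigen presentation to 14300 to 16900. Actb, whose probe sets at the 3′ and 5′ ends show how complete the labelled RNA was, had a 3′ over 5′ ratio of 2.04 and 2.20 in medium at 4 hours and 1.47 to 1.68 on the other 6 arrays. The part of these in the differences of Socs1 and Socs2 was not tested.

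Around the family, the genes that carry the signal from the receptor did not pass the test with IFN-γ. Of 11 measured genes of the receptor, the JAKs and the STATs (of 13 listed), 0 were called at 4 or at 16 hours by limma. At 4 hours 3 of them had an unadjusted p under 0.05, Stat5b (difference 0.36), Tyk2 (0.36) and Stat3 (0.28), named after their values were seen, and at 16 hours 2 had, Jak3 (0.39) and Stat3 (0.29). Over all probe sets 4.02% had such a p at 4 hours and 3.43% at 16 hours. The median difference of the 11 genes was 0.03 at 4 hours and -0.01 at 16 hours, beside -0.01 and 0.00 over all probe sets. Ifngr1 and Ifngr2, the chains of the receptor, differed by 0.09 and -0.01 at 4 hours and by -0.24 and -0.06 at 16 hours. With time 0 of the 11 were called in medium or in IFN-γ. At an unadjusted p under 0.05 there were 3 and 2, beside 16.2% and 13.7% of all probe sets. Lower calls under the replicate block made up 8.09% of all probe sets in medium and 6.94% in IFN-γ. With the replicate number as a block 2 fell in medium, Stat5a (-0.36, limma adjusted p = 0.102, or 0.0249 with the block) and Stat3 (-0.32, limma adjusted p = 0.139, or 0.0427 with it), and 1 in IFN-γ, Stat4 (-0.45, limma adjusted p = 0.135, or 0.0344 with it).

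Other inhibitors of the pathway did not pass either. Of 10 measured phosphatases, PIAS proteins and other inhibitors (of 14 listed), 0 were called with IFN-γ at either time by limma, with a median difference of 0.11 at 4 hours and 0.10 at 16 hours. At 4 hours 2 of them had an unadjusted p under 0.05, and at 16 hours 0 had, beside 4.02% and 3.43% of all probe sets. Those 2 were Usp18, an inhibitor of type I interferon signalling, at 0.48 (limma adjusted p = 0.609), and Ptprc, which encodes the phosphatase CD45, at 0.60 (limma adjusted p = 0.649), both named after their values were seen. With time 0 were called (1 at an unadjusted p under 0.05 in each of medium and IFN-γ, beside 16.2% and 13.7% of all probe sets). With the block Ptprc rose in medium (0.73, limma adjusted p = 0.0797, or 0.013 with it), where 4.52% of all probe sets were called higher. The Ptprc values are those of the brightest of its 3 probe sets.

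The partners of the SOCS box were measured through 7 genes (of 9 listed), such as Elob and Eloc, the elongins that the box binds, and Rnf7. Of these 0 were called in any comparison by limma. At an unadjusted p under 0.05 there were 0 with IFN-γ at either time, beside 4.02% and 3.43% of all probe sets. With time there were 2 in medium and 1 in IFN-γ, beside 16.2% and 13.7%. Eloc, by the brightest of its 3 probe sets, differed with time by -0.65 in medium (limma adjusted p = 0.207, or 0.00213 with the replicate block). In IFN-γ it differed by -0.90 (limma adjusted p = 0.103, or 0.000607 with the block). Under the block 8.09% and 6.94% of all probe sets were called lower. Of 6 measured genes for other proteins with a SOCS box (of 19 listed), 0 were called with IFN-γ at either time by limma (also 0 at an unadjusted p under 0.05). With time 1 was called lower, where 2.57% of all probe sets were in medium and 1.3% in IFN-γ. Spsb1, whose product couples the ligase to inducible nitric oxide synthase, fell with time by 1.05 in medium (SE 0.14, limma adjusted p = 0.00527) and by 1.10 in IFN-γ (SE 0.14, limma adjusted p = 0.00728). Its dimmer probe set differed by -1.09 and -1.29. At 16 hours with IFN-γ neither array of Spsb1 was above the antisense level, nor was 1 of the 2 in medium, so the size of the fall is uncertain. The calls were lost without array 2 of medium at 4 hours and without array 2 of IFN-γ at 4 hours, respectively.

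The 17 measured genes known as targets of STAT3 or STAT5, the factors known to act on Socs3, Socs2 and Cish in other cells, gave 0 calls with IFN-γ at 4 or 16 hours by limma (2 and 3 at an unadjusted p under 0.05, beside 4.02% and 3.43% of all probe sets). Their median difference was 0.00 and 0.08, beside -0.01 and 0.00 over all probe sets. With the replicate block 1 of them was called lower with IFN-γ at 16 hours, where 0.435% of all probe sets were. This was Fos (-0.80, limma adjusted p = 0.817, or 0.00359 with the block). Neither IFN-γ array of Fos at 16 hours was above the antisense level, and its dimmer probe set differed by -0.07. With time in medium 2 fell and 1 rose, against 2.57% lower and 1.71% higher of all probe sets, and with the replicate block 6 fell and 1 rose, against 8.09% and 4.52%. In IFN-γ 2 fell and 0 rose, against 1.3% and 0.821%, and with the block 6 fell and 2 rose, against 6.94% and 3.2%. Leaving out 1 array, the number that fell ran from 1 (without either array of medium at 4 hours) to 5 (without either of IFN-γ at 16 hours) in medium. In IFN-γ it ran from 0 (without either array of IFN-γ at 4 hours) to 4 (without array 2 of IFN-γ at 16 hours), and was 1 without either array of medium at 4 hours or with only the arrays compared. Pim1, a kinase gene induced by STAT5, fell by 0.86 in medium (SE 0.10, limma adjusted p = 0.00264) and by 0.62 in IFN-γ (limma adjusted p = 0.0189). The second of these calls was lost without any 1 of the 4 arrays of 4 hours (limma adjusted p = 0.0579 to 0.183) and with only the arrays compared (0.0889). The cell cycle inhibitor gene Cdkn1a fell by 0.75 in medium (SE 0.11, limma adjusted p = 0.00612) and by 0.78 in IFN-γ (limma adjusted p = 0.00853). These calls were lost without array 1 (0.103) or 2 (0.0597) of medium at 4 hours and without array 1 (0.118) or 2 (0.084) of IFN-γ at 4 hours, respectively, each a limma adjusted p. The dimmer probe set of Pim1 differed by -0.25 in medium (limma adjusted p = 0.458) and fell by 0.90 in IFN-γ, and that of Cdkn1a fell by 0.98 in medium. The one that rose in medium was Fos, by 1.10 (limma adjusted p = 0.043), but both arrays at 4 hours and 1 of 2 at 16 hours were not above the antisense level, so that size is uncertain, and its dimmer probe set differed by 0.25. The Fos call was lost without any 1 of the 6 arrays other than those of IFN-γ at 16 hours (limma adjusted p = 0.0553 to 0.288), after quantile normalization (0.0773) and after median centring (0.059).

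Of 25 measured cytokine receptors that use JAKs (of 28 listed) and 14 measured ligands of such receptors (of 18), 0 were called with IFN-γ or with time by limma. At an unadjusted p under 0.05 there were 3 receptors and 0 ligands with IFN-γ at 4 hours, 5 and 0 at 16 hours, 4 and 2 with time in medium, and 6 and 3 in IFN-γ. The shares of all probe sets in these 4 comparisons were 4.02%, 3.43%, 16.2% and 13.7%. With the replicate block Il12rb1, a chain of the interleukin 12 receptor, rose at 16 hours with IFN-γ (0.67, limma adjusted p = 0.226, or 0.00497 with the block), where 0.411% of all probe sets were called higher. Under the same block, Il2ra and Il15ra among the receptors and Il15 and Il6 among the ligands fell with time both without and with IFN-γ, and Ifng fell with it. Such lower calls made up 8.09% of all probe sets in medium and 6.94% in IFN-γ. The receptors' differences with IFN-γ ran from -0.39 to 0.31 at 4 hours and from -0.36 to 0.67 at 16 hours. Those of the ligands ran from -0.26 to 0.32 and from -0.15 to 0.23.

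**Figure D3:**
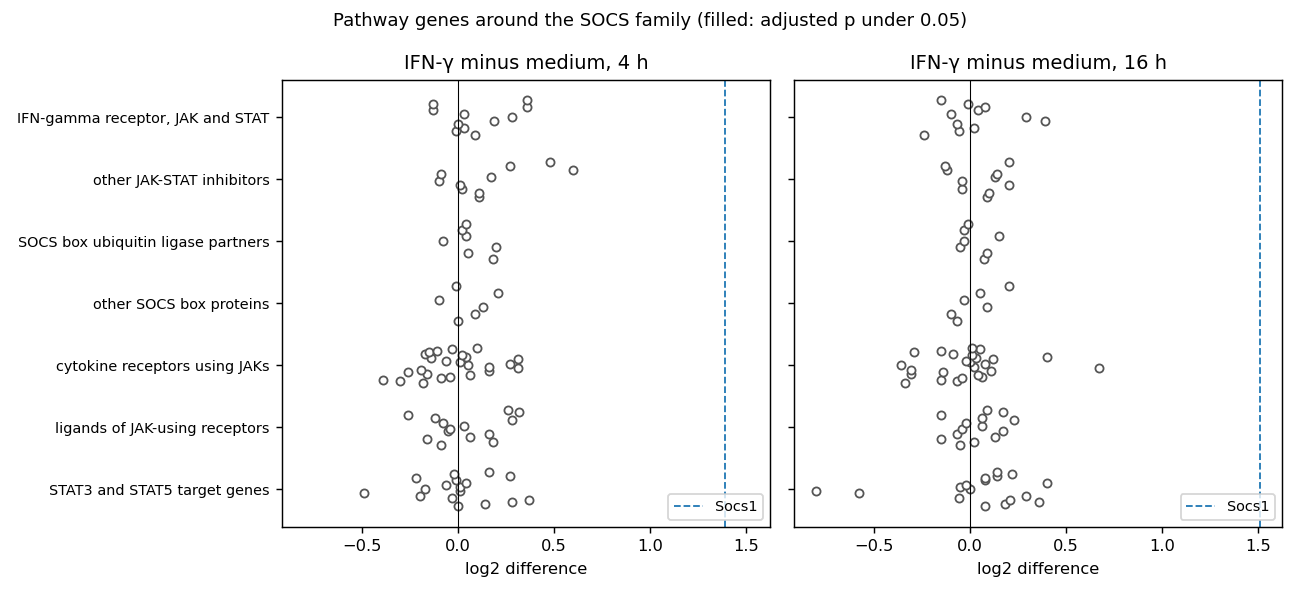
Log2 difference with IFN-γ (horizontal axis) at 4 hours (left) and 16 hours (right) for the measured genes of 7 pathway lists, 1 point per gene at its brightest probe set; filled red points have a limma adjusted p under 0.05, and the dashed line marks Socs1. None of these genes is called at either time, and all lie to the left of Socs1, at 0.60 or less at 4 hours (line at 1.39) and 0.67 or less at 16 hours (line at 1.51).

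The genes whose pattern over the 8 arrays was most like that of Socs1 were sought among 975 genes whose group means spanned at least 0.5 on the log2 scale. They were Tap1, which helps to carry peptides to MHC class I molecules (Pearson r = 0.975), Samhd1, a nucleotide hydrolase that limits viral replication (0.969), Hdc, the enzyme that makes histamine (0.965), Igtp, a GTPase of cell-autonomous immunity (0.958) and Wars, the tryptophanyl-tRNA synthetase (0.954). Group means of Igtp went from 8.43 in medium to 10.06 with IFN-γ at 4 hours and from 8.31 to 9.77 at 16 hours. Those of Hdc went only from 5.44 to 5.85 and from 5.33 to 5.86, around or below the antisense level. When single arrays were left out 3 to 5 of the 5 genes were named again, 3 of them without array 2 of IFN-γ at 4 hours.

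For Socs2 the most alike were Tpm4, a tropomyosin (0.994), C9orf72 (0.992), Pno1, a factor of ribosome assembly (0.991), the mitochondrial chaperone Hspd1 (0.99) and the nuclear import receptor Ipo5 (0.987). Hspd1 went from 9.59 at 4 hours to 8.51 at 16 hours in medium and from 9.62 to 8.48 with IFN-γ. Of these 5 genes 1 to 4 were named again when single arrays were left out, 1 of them without array 1 of IFN-γ at 16 hours, and 2 after quantile normalization, so this choice of genes is loose. The arrays are shared by all genes, and no test was made of these correlations.

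**Figure D4:**
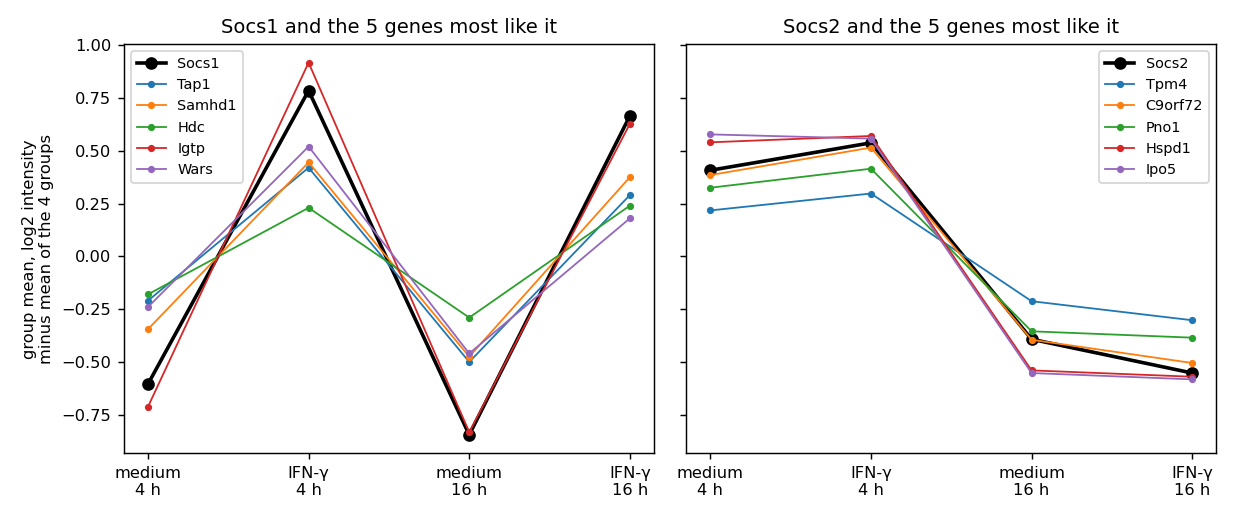
Group means of log2 intensity minus the mean of the 4 groups (vertical axis) for Socs1 (left) and Socs2 (right) in black, each with the 5 genes of highest Pearson r over the 8 arrays. Socs1 and its 5 are high in both IFN-γ groups, and Socs2 and its 5 are high in both groups at 4 hours; the ranges of the genes differ, from 0.53 for Hdc to 1.75 for Igtp beside 1.63 for Socs1.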

How the data were processed

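Total RNA of 8 samples, about 10 µg each per the labels' protocols, was measured on Affymetrix MG-U74Av2 arrays. The authors deposited probe set intensity on a linear scale, from 2.65 to 12523.46; the submitters' processing notes name RMA, and its version and settings are not given in the sources used here. Log2 was taken with no pseudocount and no further normalization. The background step of RMA can shrink differences of dim probe sets. The 66 control probe sets among the 12488 stayed out of the tests. Names came from the platform annotation, updated by gene number: 10833 probe sets had 1 symbol, 396 several and 1193 were unlisted and are unnamed.

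Groups and replicate numbers came from the sample titles. limma 3.58.1 in R 4.3.3 (lmFit, contrasts, eBayes, two-sided) fitted 4 group means over 8 arrays, with Benjamini-Hochberg adjustment over 12422 probe sets. The script was tested on simulated data. Each listed gene was represented by its brightest probe set, and dimmer probe sets of a listed gene are given only where the text says so. The text names all SOCS probe sets, up to 4 called genes of each list and comparison by smallest p, and the 5 genes most like each called member; genes outside this rule are said to be so or illustrate a list. A list of target genes and a pathway member are not reported here. The other lists are all reported, with marker lists as sums of intensity; of 5 NK cell markers 2 or 3, of 5 erythroid markers 1, of 5 plasmacytoid markers 3 or 4, of 6 antigen presentation markers 5 and of 3 CD8- dendritic cell markers 2 or 3 lay above the antisense level on both arrays of a group. The members and lists were chosen with earlier results of these data known.

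The difference between array 1 and array 2 correlated between groups with r from 0.367 to 0.74 in all 6 pairs of groups. By the rule that all exceed 0.1 the numbers pair the arrays, though no label says what they stand for. Calls changed by the block are given for the SOCS family and the reported pathway lists. For markers they are given only for the macrophage or monocyte list with IFN-γ. Each choice was changed in turn: quantile normalization or median centring was added, the dimmest 40% of probe sets dropped, the prior made trended and robust, the model cut to only the arrays compared, the replicate block added, probe sets averaged to 1 mean value per gene, and every array omitted once (the array left alone is then taken to vary as the pooled groups do). The list counts, the likeness and the within-array comparison under these were added after the data were seen.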

Additional observations from a re-analysis of the deposited data

How the results depend on the processing

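Of 444 values of the SOCS family probe sets under the alternatives, 414 kept their direction and side of the threshold, 13 lost the call and 17 changed sign, and none gained a call. The calls of Socs1 and Socs2 held under all alternatives that keep the 8 arrays. With the replicate number as a block, Socs1 had an adjusted p of 0.00104 at 4 hours and 0.00066 at 16 hours, Socs2 0.000986 with time in medium and 0.000285 in IFN-γ, and no SOCS family call changed; the counts of member calls stayed at 1, 1, 0, 1 and 1. Leaving out 1 array, those counts ranged from 0 to 1 in the 4 comparisons with a call and were 0 for the difference of effects.

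Counts over all probe sets moved more, and the cause was not tested. With IFN-γ at 4 hours the 32 calls were 93 with only the arrays compared, 157 with the replicate block, 20 with 1 mean value per gene and 8 to 67 leaving out an array. At 16 hours the 32 were 7 with only the arrays compared, 105 with the block and 10 to 38 leaving out an array. The difference of effects had 0 calls by limma, 353 at an unadjusted p under 0.05, 30 with the block, and 0 leaving out any array. With time in medium the 531 were 1567 with the block and 73 to 923 leaving out an array, and in IFN-γ the 263 were 120 with only the arrays compared, 1259 with the block and 27 to 708.

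All sign changes were of values with no call. The brighter Socs3 probe set with time in medium, at 0.03, was -0.02 after median centring, -0.07 with 1 mean value per gene and -0.08 to 0.13 leaving out an array, and Socs1 with time in IFN-γ, at -0.12, was 0.01 after quantile normalization and -0.38 to 0.14. Leaving out an array, the 16-hour IFN-γ difference ran from -0.39 to 0.07 for Socs2 and from -0.25 to 0.15 for Socs5. The difference of effects ran from -0.15 to 0.37 for Socs1, -0.30 to 0.03 for the dimmer Socs3 probe set, -0.28 to 0.11 for Socs5 and -0.38 to 0.01 for Cish. With time in IFN-γ, the brighter Socs3 probe set ran from -0.32 to 0.01, Socs5 from -0.03 to 0.37 and Cish from -0.31 to 0.07. Of 2028 values for lists and other genes, 1901 stayed, 37 lost a call and 90 moved. The number of arrays, 2 a group, limits which differences could be resolved.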
